A study of Mus musculus with 8 samples.

Results

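The 8 genes described here encode the protein machinery that starts autophagy, and they were followed in zymosan-treated peritoneal macrophage RNA of wild-type (wt) and Card9-/- mice. They are Ulk1, Ulk2, Atg13, Rb1cc1, Atg101, Atg9a, Atg2a and Atg2b. The members were taken by gene name among the non-control spots of the array files, and every probe that carries one of these names was kept. This gave 20 probes out of 56605 non-control probes, and 8 genes out of 37074 names.

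The study compared 4 arrays of wt and 4 arrays of Card9-/- macrophages, hybridised singly with Cy3-labelled RNA on Agilent 60-base oligonucleotide arrays. Card9 is the adaptor through which Dectin-1 and other C-type lectin receptors signal to NF-kB. In both genotypes, mice had received 1 ml of 3% thioglycolate 4 days before cell collection, and zymosan, a yeast cell wall preparation, was given into the peritoneum at 500 mg/kg for 4 h. Cells left after red cell lysis were plated, and those that adhered for 3 h were kept. No untreated group was analysed here, and every difference is one between genotypes after zymosan. The labels state 4 or 5 mice per group and do not say whether an array holds RNA of 1 mouse or of a pool. For that reason, p-values reflect nothing beyond the spread among these 8 samples, which may be technical. Neither the age nor the strain of the mice, nor the way Card9 was deleted, is stated in the labels.

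Autophagy is the route by which a cell encloses cytoplasm, organelles or microbes in a membrane and delivers them to lysosomes. It is started by the ULK complex, in which the kinase ULK1 or its relative ULK2 is held by the adaptor ATG13, the scaffold FIP200 (encoded by Rb1cc1) and the ATG13 partner ATG101. AMPK activates the complex and mTORC1 holds it inactive, mainly by phosphorylation. The membrane then grows from vesicles that carry the scramblase ATG9A and from lipids that the transfer proteins ATG2A and ATG2B bring from the endoplasmic reticulum. In macrophages the same proteins act in the clearance of microbes, and FIP200 and ATG13 are also known for roles outside autophagy.

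The probes that the results below turn on are shown as the last 30 of their 60 bases, 5′ to 3′ as the deposited files give them, with the file's coordinates on mm9. Capitals mark AATAAA, the letters of the usual polyadenylation signal, where they occur in the stretch.
Ulk1 A_55_P1977314: tcatatcagtttaagaaAATAAAaattgga
Ulk1 A_55_P2736170: gtggtacgcagactaaatgagctgtacaag
Atg13 A_55_P2028394: aaatataatcaagagatttccAATAAAaag
Atg13 A_52_P151126: ttggagaacatttgtagggccgtaactccg
Rb1cc1 A_55_P2905159: ttatgacagaccacaatatttctttggaga
Rb1cc1 A_52_P542172: tgattggaaagagtttcttcagggttgttg
Atg2a A_55_P2907381: gtctgcatgaagtggAATAAActtgcccac

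These probes show where on the transcripts each value was read. The Ulk1 probes lie on the minus strand at chr5:111213514-111213573 and chr5:111216232-111216623, starting at bases 5130 and 3132 of their transcripts, and the second spans more genome than its own length, so it crosses an intron. The Atg13 probes lie on the minus strand at chr2:91514791-91514850, base 3491, and chr2:91550109-91550168, base 528 of a separate transcript record. The Rb1cc1 probes shown lie on the plus strand at chr1:6239414-6239473 (base 3424) and chr1:6265434-6265493 (base 6294), and the Atg2a probe at chr19:6262231-6262290 (base 6266), also on the plus strand. No gene annotation of mm9 was used here, so exon and UTR borders are not stated. AATAAA was searched after the sequences had been seen. It was present in 3 of the 20 member probes and in 9.77% of all 56605 probes, and its reverse complement TTTATT in 0 of 20 and 3.85%. A match is a description of the letters and not evidence of a used site.

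Several facts of the arrays touch every comparison. Slide 1 and its scan held the whole wt group together with Card9-/- replicate 4, slide 2 held Card9-/- replicates 1 and 3, and slide 3 held Card9-/- replicate 2, so slide and genotype overlap largely. Between 47.8% and 56.5% of the 59305 spots were well above background per array, 0 spots were saturated, and the number of arrays limits the precision. On a log2 scale with 0 at the array's 75th percentile, detection reached less far down in Card9-/-. The lowest spot well above background lay at -4.84 to -4.31 on wt arrays and at -4.17 to -3.47 on Card9-/- arrays. The brighter Card9 probe (A_66_P128849) gave processed signals of 38.2, 1058 and 561 in wt replicates 2, 3 and 4, but 4.75, not well above background, in the library labelled wt replicate 1. Its signals of 3.60 to 11.9 in Card9-/- were not well above background on any array. The dimmer Card9 probe (A_66_P135237) was well above background only on wt replicates 2 and 3, at 20.2 and 142. It gave 12.7 and 41.1 on wt replicates 1 and 4, and 3.70 to 18.5 in Card9-/-. The labels do not name the deleted stretch of Card9, and a probe outside that stretch would check nothing. Probes of Xist were well above background on 4 of 4 wt and 0 of 4 Card9-/- arrays, and 5 of 7 probes of the Y-linked Eif2s3y, Uty and Ddx3y on 0 of 4 wt and 4 of 4 Card9-/- arrays (the other 2, of Uty and Ddx3y, on 0 of 8), so sex and genotype cannot be told apart. The wt arrays also differed among themselves. Wt replicates 1 and 2 lay close together (SD of their difference 0.398 on the log2 scale), while the other wt pairs differed with an SD of 1.11 to 1.71. Wt replicates 1 and 2 were nearer to each Card9-/- array (SD 0.653 to 1.18) than to wt replicates 3 and 4 (1.24 to 1.71).

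The labelled cell type was checked against marker genes. The mean level of 8 macrophage markers was 0.57, 0.92, 6.02 and 5.02 in wt replicates 1 to 4 and 2.18 to 2.66 in Card9-/-. That of 7 markers of resident peritoneal macrophages was -1.51, -1.38, 6.16 and 4.40 in wt and -0.74 to 0.98 in Card9-/-. Macrophage markers were thus high on wt replicates 3 and 4 and low on wt replicates 1 and 2, with Card9-/- between them. Of these lists, Mertk exceeded background clearly on 2 wt and 0 Card9-/- arrays, and Gata6 on 2 wt arrays and 1 Card9-/- array. T cell markers had a higher mean in Card9-/- for 12 of 12 genes (list mean 0.40 to 0.78 in wt, 1.43 to 2.79 in Card9-/-), and natural killer cell markers for 8 of 8 (-1.03 to -0.08 in wt, 0.41 to 2.96 in Card9-/-). In these marker lists 0 genes passed an adjusted p of 0.05 in limma, at an unadjusted p under 0.05 there were 10 T cell and 7 natural killer cell markers, and the defining natural killer marker Ncr1 was detected on 0 of 4 wt and 1 of 4 Card9-/- arrays. Neutrophil markers had a list mean of 0.93 to 3.24 in wt and -0.11 to 3.32 in Card9-/-, and B cell markers 2.00 to 3.37 and 2.89 to 3.70. Red cell markers had a list mean of -0.64 to 3.77 in wt and 2.96 to 7.51 in Card9-/-, and mesothelial markers -3.41 to 0.12 and -2.27 to -1.28. The part of these cells in any difference below was not tested.

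**Figure D1:**
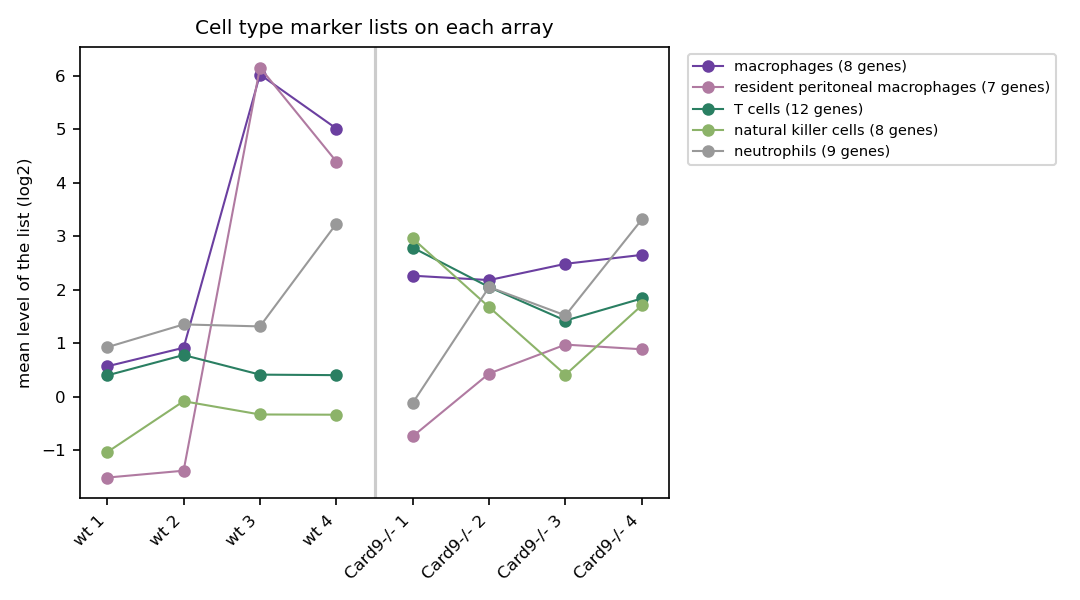
Mean level (log2, 0 at the array's 75th percentile) of 5 cell type marker lists on each of the 8 arrays; each point is the mean over the genes of one list, and lines only join the points of a list, since replicates have no order. The macrophage list reaches 6.02 and 5.02 on wt replicates 3 and 4 and lies at 0.57 and 0.92 on wt replicates 1 and 2, and the T cell list is at 1.43 or more on every Card9-/- array and at 0.78 or less on every wt array.

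RNA of all 8 genes was detected in both genotypes, and no probe of them passed the threshold for a genotype difference. In at least 1 genotype, each of the 20 probes exceeded the scanner's background criterion on 3 or more of the 4 arrays, and 17 did so on all 8 arrays. Levels are log2 processed signals minus the array's 75th percentile, so that 0 is that percentile. In limma, 0 of the 20 probes passed an adjusted p of 0.05, against 11 of the 28169 probes tested (0.0391%; 0.032% higher and 0.0071% lower in Card9-/-). At an unadjusted p under 0.05 there was 1 member probe, lower in Card9-/-, against 6.9% of all probes (2.69% higher and 4.21% lower). In 1 member probe the groups did not overlap, again lower, against 5.1% of all probes (1.74% higher and 3.36% lower). Both counts come from the same Atg13 probe. The mean level was lower in Card9-/- for 11 of 20 probes and for 54% of all probes tested. The median difference (Card9-/- minus wt, log2) was -0.044 over the 20 probes and -0.056 over all probes. Adjusted p lay between 0.607 and 1.00, and a p that misses the threshold does not show that levels were equal, so intervals are given. Because RNA was taken in bulk, fewer cells of a type and less RNA per cell cannot be told apart in any of these levels.

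**Figure D2:**
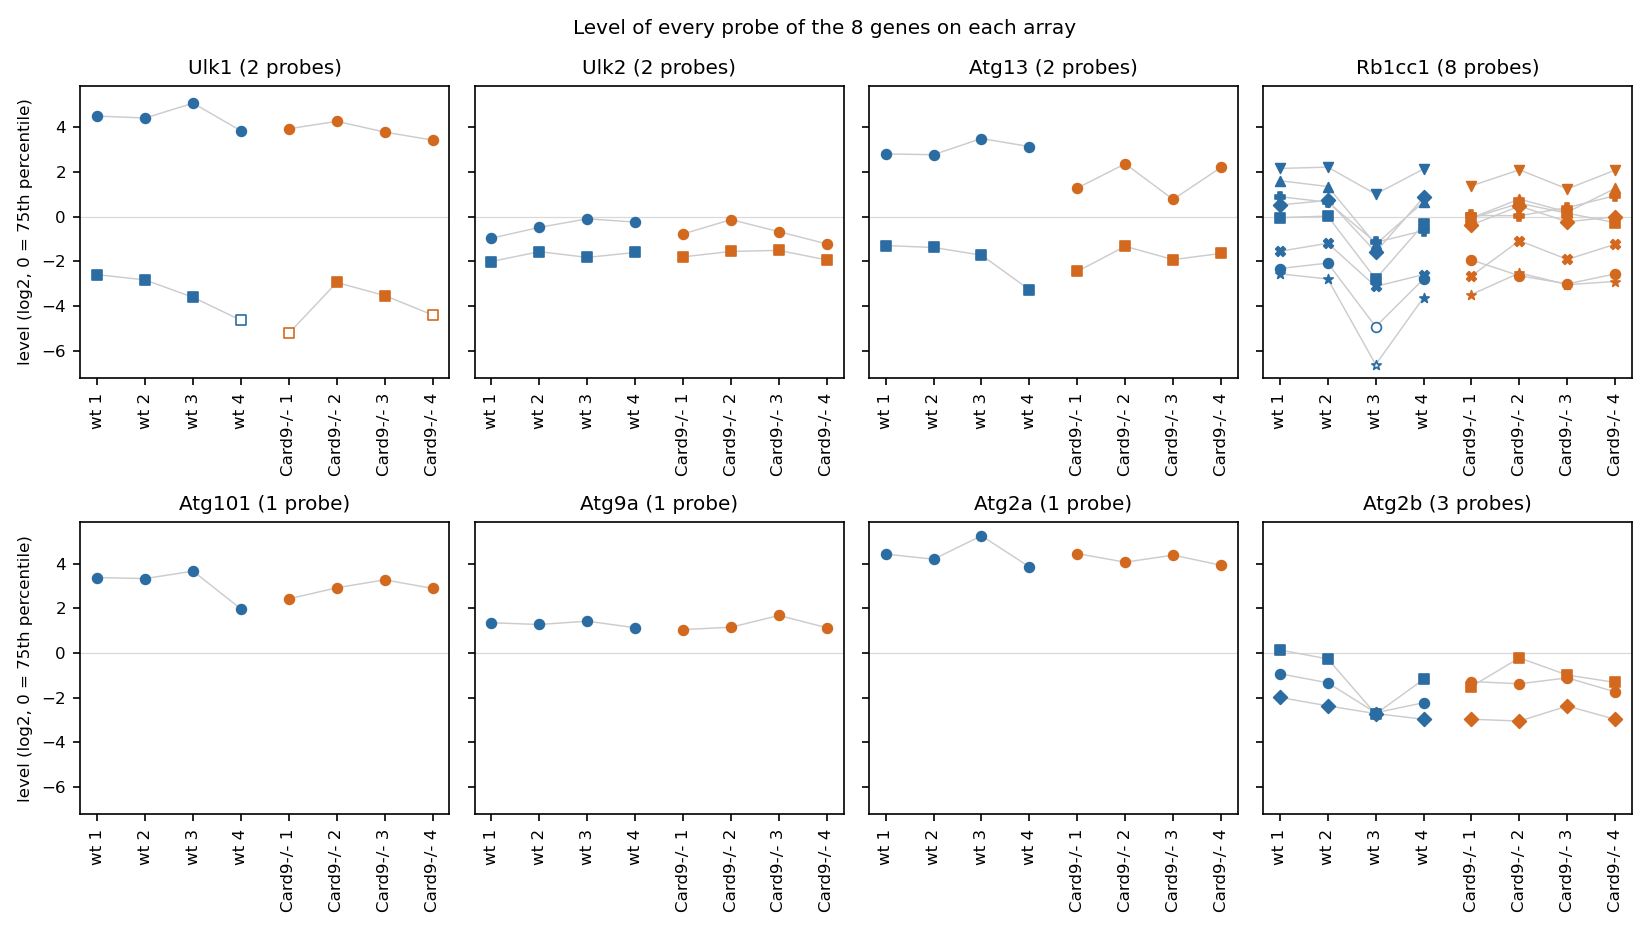
Level (log2 processed signal minus the array's 75th percentile) of each of the 20 probes on the 8 arrays, 1 panel per gene; blue is wt, orange Card9-/-, 1 symbol per probe, open symbols were not well above background, and lines only join the values of a probe. The bright Atg13 probe is at 2.77 to 3.50 in wt and 0.77 to 2.37 in Card9-/-, and every Rb1cc1 probe has its lowest value on wt replicate 3.

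The kinase genes come first. Ulk1 encodes the kinase that phosphorylates the other members of the complex. Its brighter probe (A_55_P1977314) had a level of 4.50, 4.42, 5.08 and 3.84 in wt replicates 1 to 4. In Card9-/- replicates 1 to 4 the level was 3.93, 4.27, 3.79 and 3.43. Wt replicate 3 was the highest and Card9-/- replicate 4 the lowest, and the groups overlapped, since wt replicate 4 lay below Card9-/- replicates 1 and 2. The wt mean was 4.46 ± 0.51 (SD, n = 4) and the Card9-/- mean 3.85 ± 0.35 (SD, n = 4). The difference was -0.61 (SE 0.39, 95% interval -1.47 to 0.25, limma adjusted p = 0.819), and the exact two-sided permutation p was 0.0857. With 4 arrays against 4 there are 70 assignments, and the smallest p this test can give is 0.0286.

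The other Ulk1 probe (A_55_P2736170) was too dim to add to this. Its level was -2.60, -2.84, -3.61 and -4.64 in wt and -5.22, -2.95, -3.54 and -4.40 in Card9-/-. It was detected well above background on 3 of 4 wt and 2 of 4 Card9-/- arrays, and the groups overlapped over most of their range. It entered the test through the wt arrays alone, and the values of wt replicate 4 and Card9-/- replicates 1 and 4 lie at background. The fitted difference of -0.60 (SE 0.61, limma adjusted p = 0.888) therefore rests partly on background values, and with normexp background correction it was 0.39.

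Ulk2 encodes the second ULK kinase, which can stand in for ULK1 in many cells. The level of probe A_55_P2060036 was -0.96, -0.48, -0.10 and -0.25 in wt and -0.78, -0.13, -0.67 and -1.22 in Card9-/-. The lowest array was Card9-/- replicate 4 and the highest wt replicate 3, with the groups overlapping. The difference was -0.25 (SE 0.38, 95% interval -1.10 to 0.59, limma adjusted p = 0.928). It was -0.081 without Card9-/- replicate 4 and -0.44 without Card9-/- replicate 2. Probe A_55_P2724724 spanned only -2.01 to -1.57 in wt and -1.94 to -1.51 in Card9-/-, one of the narrowest ranges among the 20 probes. Its difference was 0.049 (SE 0.32, 95% interval -0.67 to 0.77, limma adjusted p = 0.987).

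Atg13 gave the largest difference among the 20 probes, at 1 of its 2 probes. ATG13 is the adaptor that binds the kinase, FIP200 and ATG101, and it is itself a target of mTORC1. Its probe A_55_P2028394 had a level of 2.81, 2.77, 3.50 and 3.14 in wt and of 1.28, 2.37, 0.77 and 2.21 in Card9-/-. Each Card9-/- array lay below each wt array, Card9-/- replicates 1 and 3 farthest. The wt mean was 3.05 ± 0.34 (SD, n = 4) and the Card9-/- mean 1.66 ± 0.76 (SD, n = 4), a level 2.64-fold lower. The difference was -1.40 (SE 0.44, 95% interval -2.39 to -0.41), with a limma p of 0.0106 before adjustment and 0.607 after, so it did not pass. The exact two-sided permutation p was 0.0286, the smallest possible. Any probe whose groups do not overlap gives this value, so it restates the lack of overlap. Groups did not overlap in 5.1% of all probes tested (3.36% lower in Card9-/-). The 2 arrays farthest below shared slide 2. With slide as a fixed block the difference was -0.85, and it then rests on Card9-/- replicate 4 alone. With slide as a random block it was -1.37 (SE 0.45).

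At the other Atg13 probe the difference was near 0, and its direction turned when single arrays were left out. Probe A_52_P151126 had a level of -1.30, -1.38, -1.73 and -3.27 in wt and of -2.46, -1.33, -1.93 and -1.65 in Card9-/-. Here wt replicate 4 was lowest and the groups overlapped. The difference was 0.080 (SE 0.51, 95% interval -1.05 to 1.21, limma adjusted p = 0.987). It was -0.37 without wt replicate 4, -0.090 without Card9-/- replicate 2 and -0.50 without wt replicates 3 and 4. The gap between both probes within an array was compared after the values had been seen, so it is a description. The wt gap was 4.97 ± 1.09 (SD, n = 4) and the Card9-/- gap 3.50 ± 0.54 (SD, n = 4), a difference of -1.48. The Atg13 probes belong to separate transcript records and lie far apart on the gene, and which transcripts each reads was not tested. As a measure of the ends of transcripts, also added after seeing the data, the median of upstream minus downstream probes at least 2000 bases apart (774 transcripts) was 0.26, 0.10, -0.05 and -0.39 in wt and -0.22, -0.23, -0.03 and 0.52 in Card9-/-. This measure overlapped between the genotypes and was extreme on wt replicate 4 and Card9-/- replicate 4, and its part in the Atg13 values was not tested.

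**Figure D3:**
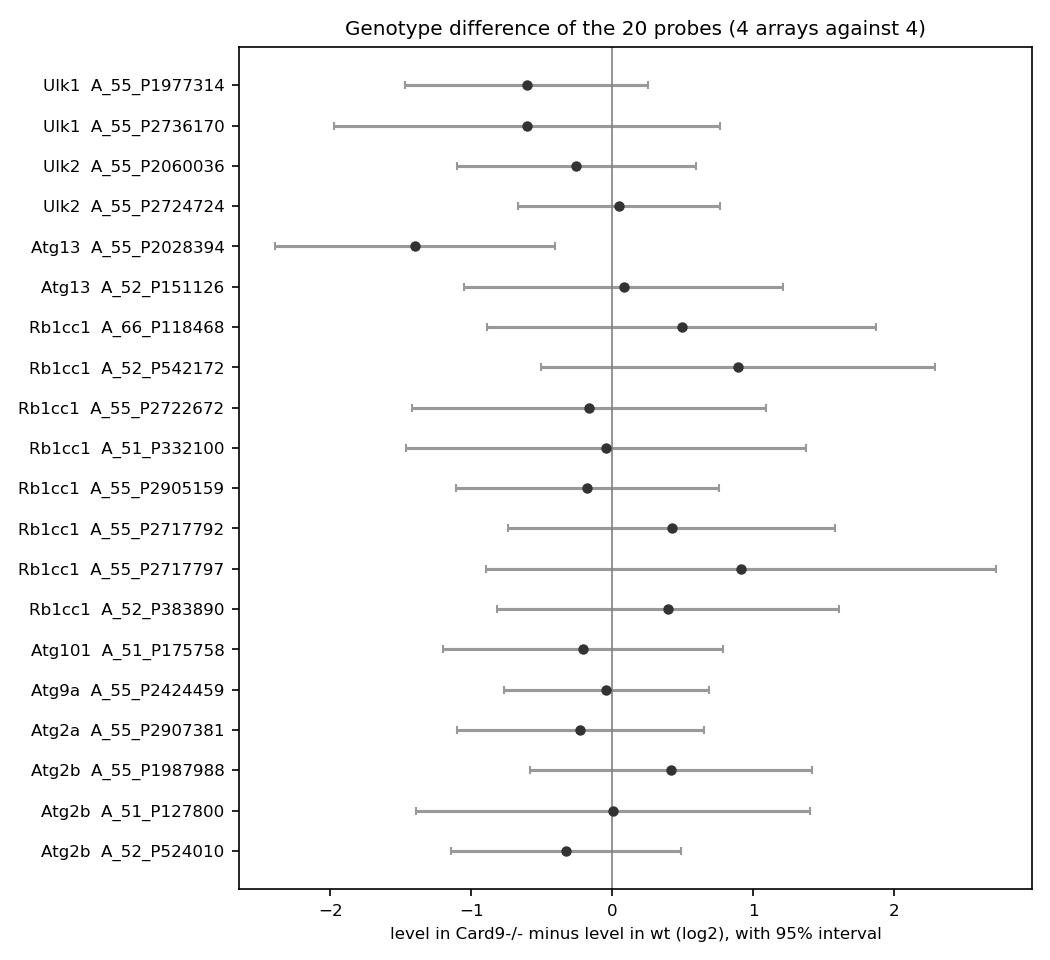
Difference in level between genotypes (Card9-/- minus wt, log2) of each of the 20 probes, with its 95% interval from limma (4 arrays against 4). The interval of Atg13 A_55_P2028394, -2.39 to -0.41, lies below 0 before adjustment over all probes, and the intervals of the other 19 probes include 0.

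Rb1cc1, which encodes the scaffold FIP200, was read by 8 probes over one gene on chromosome 1, and these are not replicates of one another. Its differences between genotypes ran from -0.18 to 0.91, 3 lower and 5 higher in Card9-/-, with a median of 0.41. The dimmest probes, A_55_P2717797 and A_66_P118468, were both among those higher in Card9-/-. They lay nearest to background, which was higher on this scale in Card9-/-, and its part in their differences was not tested. The pattern that the 8 probes shared was between arrays of one genotype. Wt replicate 3 had the lowest level on 8 of 8 probes.

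Probe A_55_P2905159, the one with the highest mean, had a level of 2.16, 2.22, 1.01 and 2.13 in wt and of 1.38, 2.10, 1.24 and 2.08 in Card9-/-. The arrays at the bottom were wt replicate 3 and Card9-/- replicates 3 and 1, so the groups overlapped. The difference was -0.18 (SE 0.42, 95% interval -1.11 to 0.75, limma adjusted p = 0.957). Probe A_51_P332100 had a level of 1.61, 1.35, -1.25 and 0.66 in wt and of -0.06, 0.79, 0.20 and 1.27 in Card9-/-. Wt arrays held both its highest and its lowest values, and the difference was -0.045 (SE 0.63).

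Probe A_52_P542172 had a level of -0.04, 0.02, -2.79 and -0.35 in wt and of -0.07, 0.60, 0.15 and -0.27 in Card9-/-. Apart from wt replicate 3, the other 7 arrays lay between -0.35 and 0.60. The difference was 0.89 (SE 0.62, 95% interval -0.50 to 2.29, limma adjusted p = 0.840). The largest Rb1cc1 difference, 0.91 (SE 0.81, limma adjusted p = 0.872), was that of A_55_P2717797, whose level of -6.63 on wt replicate 3 was not well above background. Wt replicate 3 was likewise at -4.93 on A_66_P118468, again not well above background, where the other wt arrays were at -2.80 to -2.08. A_55_P2717797 and A_66_P118468 are each filed under a separate transcript record, and the other Rb1cc1 probes share a record. Which transcripts each reads was not tested. On the remaining 3 probes, A_55_P2722672, A_55_P2717792 and A_52_P383890, wt replicate 3 was at -1.58, -1.15 and -3.13.

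Centring each probe on its own mean over the 8 arrays puts the 8 Rb1cc1 probes on one scale. Their mean centred level was 0.58, 0.60, -1.81 and -0.05 in wt and -0.15, 0.46, -0.03 and 0.41 in Card9-/-. Wt replicate 3 thus stood below all other arrays. Without it, the differences ran from -0.74 to 0.22, 4 lower and 4 higher, with a lowest limma adjusted p of 0.733. Wt replicate 3 was also the array with the highest macrophage marker mean. Over the 20 member probes it was the lowest array on 10 and the highest on 5, against 23.8% and 23.3% of all probes kept. Of the 10, 8 were Rb1cc1 probes and 2 Atg2b probes, and probes of one gene are not separate observations. The part of cell composition in these Rb1cc1 values was not tested.

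**Figure D4:**
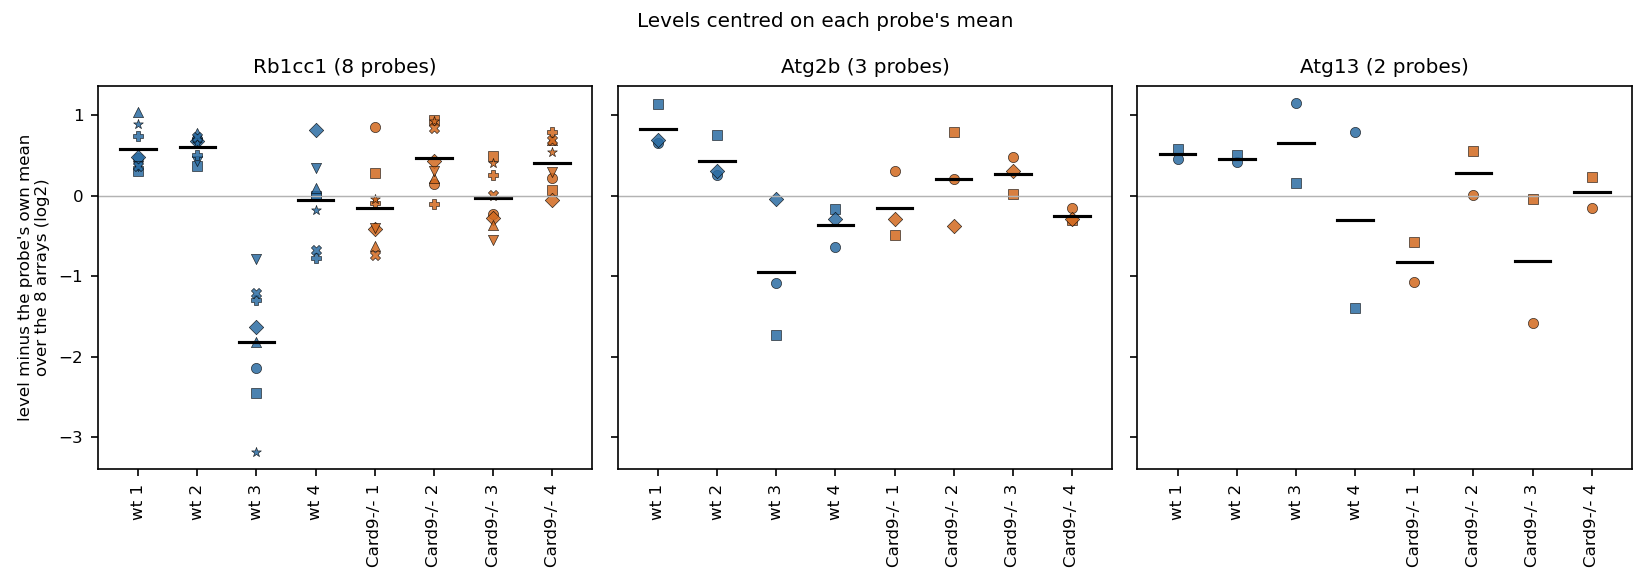
Level of each probe of Rb1cc1, Atg2b and Atg13 minus that probe's own mean over the 8 arrays (log2), 1 symbol per probe; black bars are the mean of the gene's probes on an array. All 8 Rb1cc1 probes lie below 0 on wt replicate 3 (mean -1.81), and the Atg2b mean is lowest there too (-0.95).

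Atg101 encodes the small partner that stabilises ATG13 in the complex. Its probe (A_51_P175758, chr15:101121149-101121208) had a level of 3.39, 3.34, 3.67 and 1.98 in wt and of 2.43, 2.93, 3.28 and 2.90 in Card9-/-. Wt replicate 4 was the lowest of the 8 arrays and wt replicate 3 the highest. The difference was -0.21 (SE 0.44, 95% interval -1.20 to 0.78, limma adjusted p = 0.953). It was -0.58 without wt replicate 4 and -0.016 without wt replicate 3.

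The genes that supply the membrane follow. Atg9a encodes the scramblase of the seed vesicles. Its probe (A_55_P2424459, chr1:75184260-75184319) had a level of 1.36, 1.28, 1.43 and 1.14 in wt and of 1.05, 1.16, 1.69 and 1.14 in Card9-/-. Card9-/- replicate 3 stood above the other 7 arrays, which lay within 1.05 to 1.43. The difference was -0.042 (SE 0.32, 95% interval -0.77 to 0.68, limma adjusted p = 0.990).

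Atg2a and Atg2b encode the lipid transfer proteins, which can replace each other in cultured cells. The Atg2a probe had a level of 4.43, 4.21, 5.26 and 3.86 in wt and of 4.46, 4.07, 4.39 and 3.94 in Card9-/-. Wt replicate 3 was highest, as at the bright probes of Ulk1 and Atg13, and the groups overlapped. The difference was -0.23 (SE 0.39, 95% interval -1.10 to 0.65, limma adjusted p = 0.939), and 0.047 without wt replicate 3.

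For Atg2b, wt replicate 3 was the lowest array on 2 of 3 probes. Probe A_51_P127800 had a level of 0.14, -0.26, -2.73 and -1.17 in wt and of -1.50, -0.21, -0.98 and -1.31 in Card9-/-, with a difference of 0.0044 (SE 0.62, 95% interval -1.39 to 1.40). Probe A_55_P1987988 had a level of -0.92, -1.33, -2.67 and -2.22 in wt and of -1.27, -1.37, -1.11 and -1.74 in Card9-/-, with a difference of 0.41 (SE 0.45), which was 0.12 without wt replicate 3 and 0.70 without wt replicate 1. The wt arrays spread more widely than the Card9-/- arrays on both. Probe A_52_P524010 had a level of -1.99, -2.36, -2.71 and -2.96 in wt and of -2.96, -3.04, -2.37 and -2.97 in Card9-/-, with a difference of -0.33 (SE 0.36, limma adjusted p = 0.897), and -0.16 without wt replicate 1. The mean centred level of the 3 probes was 0.83, 0.43, -0.95 and -0.37 in wt and -0.16, 0.21, 0.26 and -0.25 in Card9-/-.

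The neighbouring steps of autophagy were set beside these genes with 1 probe per gene, the one with the highest mean. On that basis the median difference was -0.22 over the 8 members (7 lower, 1 higher) and -0.088 over the 18605 genes represented. This split depends on the choice of probe, since 11 of all 20 member probes were lower and 9 higher. The signs of several members also changed with the scaling, as given at the end. The share of represented genes with a lower mean was not computed, and over all probes tested it was 54%. In each of the lists below, 0 genes passed an adjusted p of 0.05 in limma, and the gene with the smallest p of each list is named.

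Upstream of the complex, 6 of 7 measured genes of AMPK and its activating kinases had a lower mean in Card9-/- (median -0.24). Prkab2, a regulatory AMPK subunit, had a difference of -0.77 (SE 0.51, limma adjusted p = 0.831). Of the 5 mTORC1 genes, 3 were lower and 2 higher (median -0.053), and the inhibitory subunit Deptor had -0.93 (SE 0.91, limma adjusted p = 0.882). Deptor was detected on 3 of 4 wt and 1 of 4 Card9-/- arrays, so that difference is one against values mostly at background. Of the other ULK family kinases and Atg9b, 2 of 4 were measured, both higher, and Ulk3 had 0.37 (SE 0.40, limma adjusted p = 0.895).

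Downstream, the Beclin 1 lipid kinase complex makes the phosphoinositide that marks the growing membrane. Of its 8 genes, 5 were lower and 3 higher (median -0.37). Uvrag, a subunit of the form that acts on late autophagosomes and endosomes, had a level of 4.60, 4.41, 4.68 and 4.24 in wt and of 3.26, 3.97, 3.79 and 3.37 in Card9-/-. Each Card9-/- array lay below each wt array, as for 3.36% of all probes. The difference was -0.88 (SE 0.34, 95% interval -1.64 to -0.13), and the limma adjusted p was 0.652.

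Among the 7 readers of that lipid and scramblases, 3 were lower and 4 higher (median 0.00046). Tmem41b, a scramblase of the endoplasmic reticulum, had -0.50 (SE 0.33, 95% interval -1.23 to 0.24, limma adjusted p = 0.827). Its groups did not overlap, with each Card9-/- array below each wt array, as for 3.36% of all probes. Of the 15 genes that attach LC3 and ATG12 to their targets, or encode the LC3 family itself, 11 were lower and 4 higher (median -0.30). Atg4a, a protease that trims LC3 family proteins, had 0.94 (SE 0.43, limma adjusted p = 0.729).

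**Figure D5:**
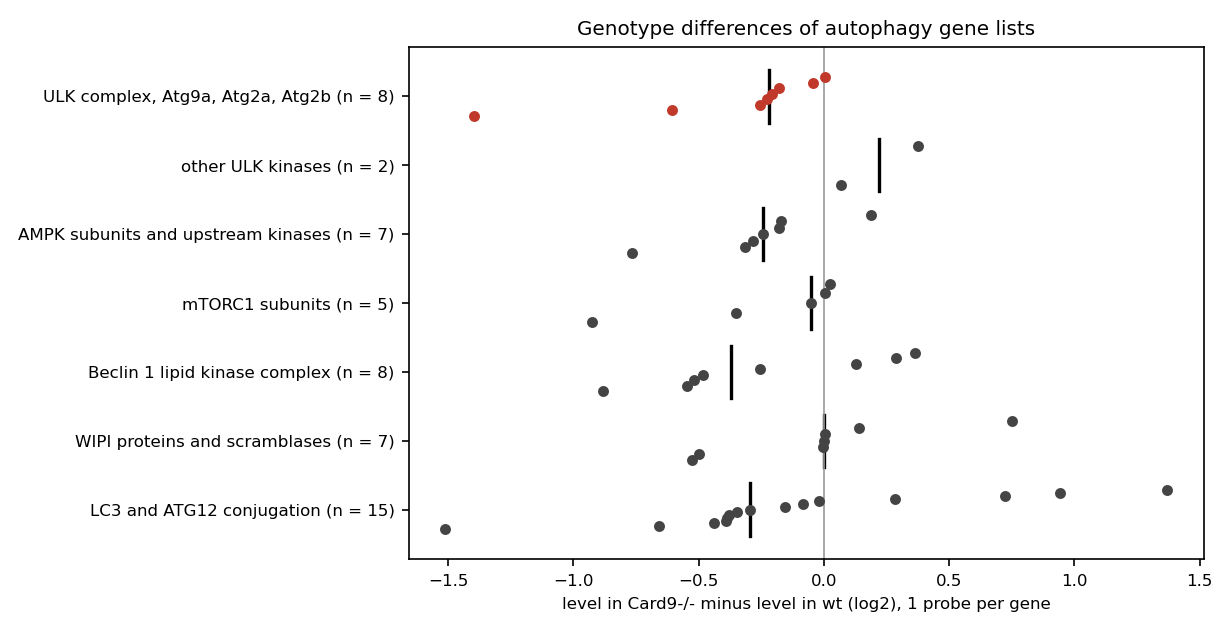
Difference in level between genotypes (Card9-/- minus wt, log2) of the members (red) and of 6 other autophagy lists (grey), 1 probe per gene; each point is a gene, vertical bars are list medians, and n is the number of genes measured. The member median is -0.22, with Atg13 at -1.40, and list medians run from -0.37 to 0.22, with 0 genes past the threshold.

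Lastly, the genes whose levels varied most like those of 3 members were listed by root mean square distance between levels centred on their own mean over the 8 arrays, among 17244 candidate probes. For Ulk1 (A_55_P1977314) these were Qars (0.128), Ndc1 (0.132), Trmt1 (0.142), Necap2 (0.145) and Ptov1 (0.149). For Atg13 (A_55_P2028394) they were Rpl36al (0.163), Pex14 (0.169), Rpl14 (0.202), Fam160b1 (0.208) and Snrpf (0.211). For Rb1cc1 (A_55_P2905159) they were Napa (0.126), Zfp992 (0.175), Commd8 (0.177), Zfp534 (0.182) and Mdm2 (0.184). These distances describe likeness over the same 8 arrays and say nothing of shared control.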

How the data were processed

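The deposited scanner files hold intensity values per spot; per the file headers, these were background-subtracted by Agilent Feature Extraction without scaling between arrays, and the submitters' processing notes give version 10.7.1.1. The authors' deposited series matrix holds log2 values. Its first 49670 of 56745 rows matched the scanner files, and the later 7075 carried the next identifier's values. Its columns matched their own scanner file in 2 of 8 cases. Each other column matched another scanner file of the same genotype, so replicate numbers differ between the matrix and the scanner files. Replicate numbers in this text are those of the scanner files. The matrix therefore served only as an alternative, with 19 of 20 member probes.

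Here, log2 of the processed signal minus the array's 75th percentile of non-control spots was used, spots flagged as outliers (63 to 213 per array) were left out and spots of a probe averaged. A probe was kept if 3 or more of the 4 arrays of a genotype marked it as well above background (28169 kept). limma 3.58.1 in R 4.3.3 (with the data.table package at 1.17.8) tested genotype over all of these with Benjamini-Hochberg adjustment at 0.05, two-sided, and single probes were also given the exact permutation test. Names came from the files' accessions (32994 probes), symbols (10224) or synonyms (520) through the gene table of RefSeq GRCm38.p6; the rest stayed as filed (12867). Probe sequences and mm9 coordinates are those of the files.

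The members, lists and rule for named genes (all members, and the gene of smallest p in each list, plus the 5 most alike for 3 members) were chosen with earlier results of these data known. Alternatives covered scaling, background correction, filters, slide, replicate number, the matrix and left-out arrays. Leaving out wt replicates 1 and 2, or 3 and 4, was added after their macrophage markers had been seen.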

Additional observations from a re-analysis of the deposited data

Results flagged for a closer look

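In 5 of 40 groups of 4 arrays (20 probes in 2 genotypes), 1 array stood apart by Dixon's gap ratio, the gap to its nearest neighbour divided by the group's range, with chance giving about 1 in 20. In wt this was replicate 3 at 3 Rb1cc1 probes, with ratios of 0.870 (A_52_P542172), 0.862 (A_55_P2722672) and 0.932 (A_55_P2905159). In Card9-/- it was replicate 3 at Atg9a (0.833) and at Atg2b A_52_P524010 (0.875). The Rb1cc1 probes read the same gene and are not separate observations. All groups of a genotype also share the same arrays. The share of all probes flagged by this rule was not computed. Whether the count is particular to these genes was therefore not tested.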

How the results depend on the processing

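The arrays were few, and they differed in slide, sex markers and cell type markers as well as genotype. Over all alternatives, 0 of 444 member values passed an adjusted p of 0.05 in limma, and 58 changed sign. The 3 probes that did not change sign in any alternative were Ulk1 A_55_P1977314 (-1.03 to -0.26), Atg13 A_55_P2028394 (-1.66 to -0.85, adjusted p 0.129 to 0.975) and Rb1cc1 A_52_P542172 (0.11 to 1.67).

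The count of probes past the threshold, 11, became 0 with the filter on all 8 arrays (1464 at an unadjusted p under 0.05), 0 with slide as a fixed block (2189) and 0 within slide 1 (2155), and 5 with 1 probe per gene. Both slide settings compare the 4 wt arrays with Card9-/- replicate 4 alone and give the same differences, so they are 1 comparison, in an arm of 1 array assumed to vary like wt. With the replicate block it was 8, and same-numbered arrays did not deviate together (correlations -0.14, 0.25, -0.12 and -0.25), so the numbers were not taken as pairs. Without wt replicates 1 and 2, added after seeing the data, it was 724 (290 higher, 434 lower). The member median was then 0.23 (5 lower, 15 higher), against -0.021 over all probes. Without wt replicates 3 and 4, also added, the member median was -0.44 (17 lower, 3 higher), against -0.15 over all probes. The share of all probes with a lower mean was not computed for these settings. All probes shifted by -0.18 in median with median scaling, 0.15 with normexp, 0.39 with no filter and -0.15 with slide as a fixed block.

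Sign changes by setting follow, as log2 differences. With median scaling, Ulk2 A_55_P2724724 was -0.13, Atg13 A_52_P151126 -0.096 and Atg2b A_51_P127800 -0.17. With quantile normalization these were -0.080, -0.037 and -0.10, with Atg101 at 0.0013, Atg9a at 0.041 and Atg2a at 0.17. In the authors' matrix they were -0.063, -0.022 and -0.092, with Atg9a at 0.039 and Atg2a at 0.13. With normexp, Ulk1 A_55_P2736170 was 0.39 and Atg2b A_52_P524010 0.13. With slide as a fixed block and within slide 1, Ulk2 A_55_P2724724 was -0.19, Rb1cc1 A_51_P332100 0.67, Rb1cc1 A_55_P2905159 0.20 and Atg2b A_51_P127800 -0.31. With slide as a random block Atg2b A_51_P127800 was -0.0012, and with wt replicates 1 and 2 averaged Rb1cc1 A_51_P332100 was 0.25. Without wt replicates 1 and 2, Ulk1 A_55_P2736170 was 0.10, Rb1cc1 A_55_P2722672 0.33, Rb1cc1 A_51_P332100 0.84, Rb1cc1 A_55_P2905159 0.13, Atg101 0.060 and Atg2b A_52_P524010 0.00019. Without wt replicates 3 and 4, Ulk2 A_55_P2060036 was 0.022, Atg13 A_52_P151126 -0.50, Rb1cc1 A_66_P118468 -0.34, A_55_P2717792 -0.41, A_55_P2717797 -0.31 and A_52_P383890 -0.35, Atg2b A_55_P1987988 -0.25 and A_51_P127800 -0.94. Leaving out 1 array at a time gave -0.037 to 0.13 for Ulk2 A_55_P2724724, -0.37 to 0.29 for Atg13 A_52_P151126, -0.14 to 0.81 for Rb1cc1 A_66_P118468, -0.74 to 0.077 for A_55_P2722672, -0.66 to 0.29 for A_51_P332100, -0.18 to 0.026 for Atg9a, -0.42 to 0.047 for Atg2a and -0.57 to 0.39 for Atg2b A_51_P127800. Without a change of sign, it gave -0.81 to -0.40 and -1.01 to -0.21 for Ulk1 A_55_P1977314 and A_55_P2736170, -0.44 to -0.081 for Ulk2 A_55_P2060036, -1.64 to -1.10 for Atg13 A_55_P2028394, 0.22 to 1.16 for Rb1cc1 A_52_P542172, -0.47 to -0.026 for A_55_P2905159, 0.057 to 0.74 for A_55_P2717792, 0.0024 to 1.36 for A_55_P2717797, 0.060 to 0.71 for A_52_P383890, -0.58 to -0.016 for Atg101, and 0.12 to 0.70 and -0.49 to -0.16 for Atg2b A_55_P1987988 and A_52_P524010. The cause of these changes was not tested.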
